A study of Mus musculus with 8 samples.

Results

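Liver fatty acid and triglyceride synthesis was followed through 35 genes, taken by symbol from a table of 24317 genes. They were assigned to 5 steps, namely supply of acetyl groups and synthesis of the chain (8 genes), regulators (4), elongation (7), desaturation (4) and assembly of glycerolipids (12). RNA came from livers of C57BL/6 mice, with 4 libraries of a normal chow group and 4 of a high-salt group, fed chow with 6% NaCl over 6 weeks. The salt content of the normal chow and the age and sex of the mice stand nowhere in the labels. Nor do the labels say that every library is a different animal, and the p-values then reflect only how these 8 libraries vary, which may be partly technical. Libraries held 16620368 to 18639685 counted reads. Of the 35 genes, 34 had enough reads to be tested and 1, Pnpla5, did not pass the filter on low counts.

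De novo synthesis in hepatocytes turns citrate exported from mitochondria into cytosolic acetyl-CoA, carboxylates it to malonyl-CoA and joins these units into palmitate. Palmitate is then lengthened, desaturated and esterified to glycerol, and the triglyceride is stored or exported in lipoproteins. The transcription factors SREBP-1 (Srebf1) and ChREBP (Mlxipl) drive many of these genes after feeding, in response to insulin and to carbohydrate.

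In the high-salt livers 0 of the 34 tested genes were called, meaning an adjusted p below 0.05 by edgeR's quasi-likelihood test over all 13341 tested genes, of which 0.300% were called. At an unadjusted p below 0.05, 3 of the 34 stood higher (Mid1ip1, Elovl5 and Agpat3) and 4 were lower (Gpat4, Lpin1, Acacb and Pnpla3). That was 20.6% of the members, beside 10.9% of all tested genes, 5.33% higher and 5.60% lower. DESeq2 called 1 member, Gpat4 (adjusted p = 0.00134), among 1.90% of the genes it gave an adjusted p. By limma-voom 0 members were called, among 0.112% of all tested genes. The median log2 fold change of high salt over normal chow was -0.058 over the members and 0.0060 over all tested genes, with 14 members above 0 and 20 below. In a whole-liver library, fewer cells of a type and less RNA per cell cannot be told apart.

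Several of these genes varied widely over the 8 libraries of both diets. CPM is the number of reads of a gene per 1000000 reads of a library, scaled by TMM. Among genes averaging 10 CPM or more, the highest of the 8 libraries was more than 3 times the lowest in 7 of 30 members (23.3%), against 1.97% of 7428 genes. Without a floor on the level, the counts were 9 of 34 members (26.5%) and 9.10% of all tested genes, with Elovl3 and Gpat3 added. The 7 were Acly, Acss2, Acacb, Fasn, Thrsp, Elovl6 and Scd2. In the first 6 the spread was shared between several libraries, while in Scd2 it came from a single one. Within a diet, the highest of the 4 libraries was 1.45 to 2.54 times the lowest for the first 6 genes on normal chow and 2.40 to 3.28 times on high salt. High salt 1 and high salt 2 were the 2 lowest of all 8 libraries in 8 of the 34 tested members (Acly, Acss2, Acaca, Acacb, Thrsp, Elovl6, Lpin1 and Pnpla3), which is 23.5%, against 6.81% of all tested genes. This ordering was looked for after the values had been seen.

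Sequences just upstream of the start are shown for the 6 members whose levels varied most widely across several libraries, as the genes on which the spread described above turns. Scd2 had no window. Each line holds the 250 bases before a RefSeq start in GRCm38.p6, written 5′ to 3′ on the gene's strand, with CCAAT boxes (the recognition sequence of NF-Y, a common partner of SREBP) in capitals. The starts are RefSeq's. The window of Acacb lies inside the gene as the table bounds it, those of Acss2, Elovl6 and Thrsp run into it, and those of Acly and Fasn end at its edge.
Acly (chr11:100528001-100528250, minus strand): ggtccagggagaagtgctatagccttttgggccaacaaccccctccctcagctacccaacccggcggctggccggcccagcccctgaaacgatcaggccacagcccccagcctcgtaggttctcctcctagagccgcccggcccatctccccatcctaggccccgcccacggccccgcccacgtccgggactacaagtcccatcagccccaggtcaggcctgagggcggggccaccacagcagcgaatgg
Acss2 (chr2:155517793-155518042, plus strand): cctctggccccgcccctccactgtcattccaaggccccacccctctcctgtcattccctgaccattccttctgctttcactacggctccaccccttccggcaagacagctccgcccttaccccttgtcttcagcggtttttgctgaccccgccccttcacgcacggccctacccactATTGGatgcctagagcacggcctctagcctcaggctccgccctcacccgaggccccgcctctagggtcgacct
Acacb (chr5:114165268-114165517, plus strand): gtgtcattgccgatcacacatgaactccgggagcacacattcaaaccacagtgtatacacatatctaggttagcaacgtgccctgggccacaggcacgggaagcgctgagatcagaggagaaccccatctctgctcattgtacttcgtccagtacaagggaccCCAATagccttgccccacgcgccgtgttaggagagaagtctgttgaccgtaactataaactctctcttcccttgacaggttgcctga
Fasn (chr11:120824548-120824797, minus strand): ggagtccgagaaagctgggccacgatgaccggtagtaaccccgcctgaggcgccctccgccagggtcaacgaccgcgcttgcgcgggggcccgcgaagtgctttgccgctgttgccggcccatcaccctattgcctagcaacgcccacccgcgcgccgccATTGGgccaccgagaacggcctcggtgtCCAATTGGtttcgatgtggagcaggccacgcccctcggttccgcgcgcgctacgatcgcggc
Thrsp (chr7:97417551-97417800, minus strand): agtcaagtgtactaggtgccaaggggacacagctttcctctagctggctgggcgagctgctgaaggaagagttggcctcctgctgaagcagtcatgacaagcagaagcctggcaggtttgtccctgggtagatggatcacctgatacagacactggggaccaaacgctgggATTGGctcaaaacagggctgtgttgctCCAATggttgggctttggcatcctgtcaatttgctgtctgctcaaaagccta
Elovl6 (chr3:129532136-129532385, plus strand): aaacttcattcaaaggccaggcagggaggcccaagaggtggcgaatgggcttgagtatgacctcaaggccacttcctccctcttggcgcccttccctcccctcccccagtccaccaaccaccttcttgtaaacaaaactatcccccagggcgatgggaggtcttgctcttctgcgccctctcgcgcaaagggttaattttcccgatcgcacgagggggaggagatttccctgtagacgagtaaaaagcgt
Of the 35 members, 28 had such a window, some with several starts. A gene counted for a motif when any of its windows held it, so the shares also depend on how many starts a gene has. CCAAT, searched on both strands (ATTGG on the other), stood in 16 of the 28 (57.1%), against 37.5% of 27025 genes with a window. Of the 6 printed, Acss2, Acacb, Fasn and Thrsp held it, and in Fasn a pair of matches overlapped in CCAATTGG. The E-box CACGTG, which reads alike on both strands, was in 5 of the 28 (17.9%, against 6.86%), namely Elovl5, Lpin2, Mlxipl, Pnpla5 and Slc25a1. TCACNCCAC, a core of the sterol regulatory element, was in 1 of the 28 (3.57%, against 1.23%), at an inner start of Mlxipl as tcacaccac on the gene's strand. Neither of these motifs was present in the 6 printed windows, which says only that those letters are not there.

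The enzymes that supply acetyl groups and build the chain gave a median log2 fold change of -0.32, and 6 of the 8 were below 0. The median was -0.51 without high salt 4 and -0.13 without normal chow 3, the ends of its range when 1 library was left out. Acly, ATP citrate lyase, splits citrate to release cytosolic acetyl-CoA and lies on chromosome 11, 100476353 to 100528000, minus strand (GRCm38, as for all positions here). Its level was 707, 483, 778 and 392 CPM in normal chow 1 to 4 and 305, 234, 507 and 561 CPM in high salt 1 to 4. High salt 1 and 2 were lowest, and high salt 3 and 4 lay within the normal-chow range. The log2 fold change of Acly was -0.55 ± 0.35 (SE, adjusted p = 0.648), with a 95% interval of -1.39 to 0.29. Acss2, which makes acetyl-CoA from acetate, was at 480.2, 236, 409 and 246 CPM on normal chow and 137, 123, 270.3 and 405 CPM on high salt. The 2 lowest were again high salt 1 and 2, and high salt 4 lay above 2 normal-chow libraries, and the log2 fold change was -0.55 ± 0.47 (adjusted p = 0.753). Acss2 shares short stretches of exon with Ggt7, Gss and Acss2os on the opposite strand, and the strand setting of the read counting is not known.

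Acetyl-CoA carboxylase makes malonyl-CoA from acetyl-CoA, and its isoforms are Acaca, the cytosolic enzyme of synthesis, and Acacb, the mitochondrial-surface enzyme whose product restrains fatty acid import into mitochondria. Acacb (chromosome 5, 114146535 to 114250761, plus strand) was at 229, 212, 251 and 173 CPM on normal chow and 99.0, 76.8, 135 and 203 CPM on high salt. The 3 lowest libraries were high salt 1, 2 and 3, and high salt 4 lay among the normal-chow values. Its log2 fold change was -0.75 ± 0.30 (unadjusted p = 0.0403, adjusted p = 0.434 by edgeR), the smallest p of this step. Acaca, at 139, 149, 196 and 121 CPM on normal chow and 103, 109, 116 and 152 CPM on high salt, had -0.33 ± 0.16 (adjusted p = 0.487). High salt 1, 2 and 3 were below every normal-chow library in Acaca as well, and high salt 4 was above 3 of them.

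Fasn, the multifunctional synthase that releases palmitate (chromosome 11, 120805846 to 120824547, minus strand), was at 765, 1129, 1582 and 624 CPM on normal chow and 679, 402, 1019 and 1220.4 CPM on high salt. The highest library was normal chow 3 and the lowest high salt 2, and normal chow 4 lay below 3 of the high-salt libraries. Within normal chow the highest library was 2.54 times the lowest, and within high salt 3.03 times. The log2 fold change of -0.30 ± 0.44 (adjusted p = 0.864) had an interval of -1.36 to 0.75, wide enough to hold a 2-fold decrease but not a 2-fold increase. Me1, the cytosolic malic enzyme that supplies NADPH, was at 180.3 ± 50.6 CPM on normal chow and 154 ± 37.8 CPM on high salt (mean ± SD, n = 4 per group, as throughout). Aacs, which activates acetoacetate in the cytosol, was at 96.6 ± 27.0 and 125 ± 44.9 CPM, with a log2 fold change of 0.37 ± 0.35 (adjusted p = 0.777). Slc25a1, the mitochondrial citrate carrier, was the steadiest member of the step, at 180.0 to 212 CPM over all 8 libraries and with an interval of -0.14 to 0.21 on the log2 scale.

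**Figure D1:**
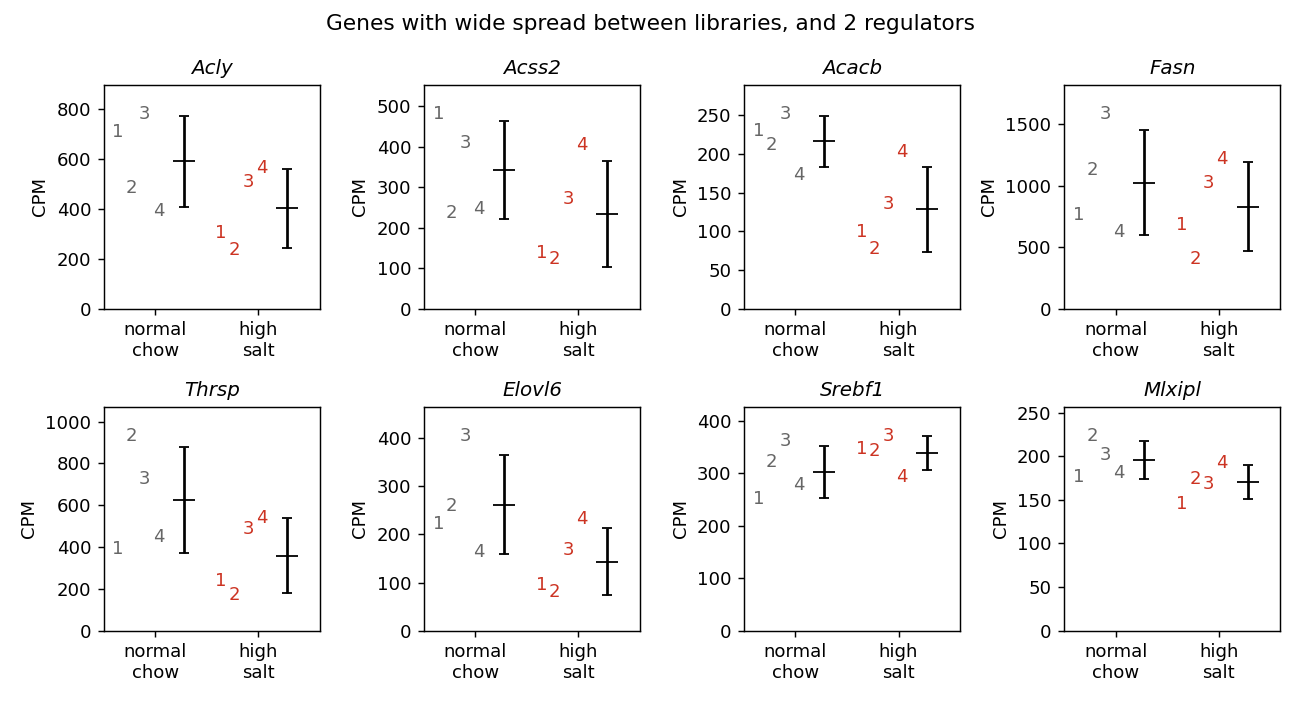
CPM (vertical axes, from 0) of 6 widely varying genes and of Srebf1 and Mlxipl, with each library drawn as its number and the mean with its SD beside it. High salt 1 and 2 are the lowest libraries for Acly, Acss2, Acacb, Thrsp and Elovl6, with Acly at 305 and 234 CPM, while the high-salt values of Srebf1 lie at 293 to 371 CPM.

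The regulators did not follow one order of libraries. Srebf1 (chromosome 11, 60199089 to 60222581, minus strand) was at 250.2, 321, 361 and 277 CPM on normal chow and 345, 342, 371 and 293 CPM on high salt. High salt 1, 2 and 3 were each above at least 3 of the 4 normal-chow libraries, so the libraries lowest in Acly and Elovl6 were not low in Srebf1. Its log2 fold change was 0.16 ± 0.12 (adjusted p = 0.670, interval -0.087 to 0.41). Mlxipl stood at 176, 223, 202 and 181 CPM on normal chow and 146, 174, 168 and 193 CPM on high salt, with -0.20 ± 0.10 (adjusted p = 0.512) and overlapping groups. Counts of a factor's transcript do not show its processing or activity, which for SREBP-1 depends on cleavage of a membrane-bound precursor.

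Thrsp, or Spot 14, is a small protein induced together with lipid synthesis, and had the widest range of any member averaging over 10 CPM other than Scd2. Thrsp was at 392, 932, 727 and 447 CPM on normal chow and 237, 172, 484 and 538 CPM on high salt, a highest-to-lowest ratio of 5.41 over the 8 libraries. Normal chow 2 was highest and high salt 2 lowest, and high salt 3 and 4 lay above normal chow 1 and 4. The log2 fold change was -0.80 ± 0.48 (adjusted p = 0.621). Normal chow 2, highest but not set apart in Thrsp, stood apart in Cyp1a1, a target of the aryl hydrocarbon receptor. Cyp1a1 was at 2019 CPM there, against at most 2.76 CPM in the other 7 libraries. Without that library the value for Thrsp was -0.55, and its part in the result was not otherwise tested. Mid1ip1, the Spot 14-related protein that promotes assembly of acetyl-CoA carboxylase into active polymers, lies on chromosome X, 10715013 to 10719690, plus strand. It was at 18.1, 21.5, 21.8 and 18.7 CPM on normal chow and 27.4, 19.4, 26.9 and 29.7 CPM on high salt. High salt 1, 3 and 4 were above every normal-chow library and high salt 2 among them, for a log2 fold change of 0.37 ± 0.13 (unadjusted p = 0.0112, adjusted p = 0.287 by edgeR). About 25.5% of the exon length of Mid1ip1 is shared with Gm14493, annotated on the opposite strand.

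Elongation of fatty acids gave members on both sides of 0, with a median log2 fold change of 0.010, which ran from -0.052 to 0.041 when 1 library was left out. Elovl6 lengthens palmitate to stearate (chromosome 3, 129532355 to 129638495, plus strand). It was at 222, 260.0, 405 and 163 CPM on normal chow and 94.4, 80.1, 167 and 232 CPM on high salt. High salt 1 and 2 were the 2 lowest libraries and high salt 4 exceeded normal chow 1 and 4, so the groups overlapped. The log2 fold change was -0.87 ± 0.44 (adjusted p = 0.550), with an interval of -1.93 to 0.19. The elongases of polyunsaturated chains had values of the other sign. Elovl5 (chromosome 9, 77917364 to 77984519, plus strand) was at 447, 332, 466 and 429.7 CPM on normal chow and 589.8, 438, 551 and 537 CPM on high salt, where 3 libraries lay above every normal-chow library. For Elovl5 the log2 fold change was 0.34 ± 0.12 (unadjusted p = 0.0134, adjusted p = 0.307 by edgeR), the smallest p of this step. Elovl2, which acts on longer polyunsaturated chains, was at 854, 492, 575 and 690.2 CPM on normal chow and 907, 1036, 695 and 627 CPM on high salt. High salt 1 and 2, lowest in Elovl6, were the 2 highest libraries in Elovl2, and the log2 fold change was 0.32 ± 0.20 (adjusted p = 0.624).

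Elovl1, an elongase of saturated very long chains, ranged from 22.3 to 29.3 CPM. In normal chow it was at 26.8, 27.7, 26.9 and 22.3 CPM and in high salt at 24.8, 25.9, 24.5 and 29.3 CPM, where normal chow 4 was lowest. Elovl3, an elongase of saturated and monounsaturated chains, was close to the detection limit in these livers, with 2 to 39 reads per library and a log2 fold change of 0.97 ± 0.58 (adjusted p = 0.595). Of the shared enzymes of the elongation cycle, the highest library was 1.45 times the lowest for Hsd17b12 and 1.18 times for Tecr. The median of this ratio was 1.35 over genes averaging 10 CPM or more. Hsd17b12, the ketoacyl-CoA reductase, was at 160.3 ± 22.5 CPM on normal chow and 155 ± 16.1 CPM on high salt. Tecr, the enoyl-CoA reductase of the final reduction, was at 166 ± 11.3 and 163 ± 9.48 CPM. The log2 intervals were -0.29 to 0.18 for Hsd17b12, -0.20 to 0.16 for Tecr and -0.19 to 0.22 for Elovl1.

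**Figure D2:**
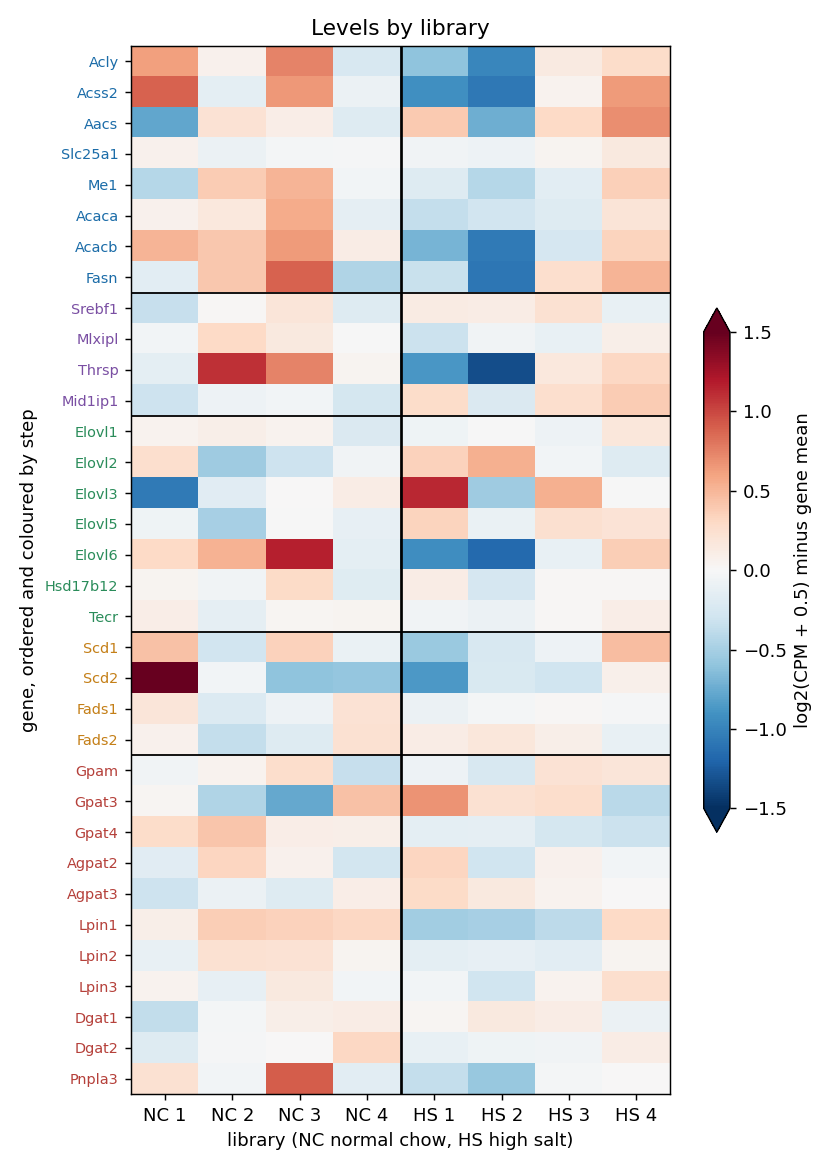
Colour gives log2(CPM + 0.5) minus the mean of each gene over the 8 libraries, for the 34 tested genes (rows, by step) and the libraries (columns). High salt 2 lies below the gene's mean in 28 of the 34 genes, and normal chow 3 and high salt 4 lie above it in 25 each.

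Scd1, the main delta-9 desaturase of liver, which makes oleate and palmitoleate, was the most abundant member by far (chromosome 19, 44394451 to 44407709, minus strand). Its level was 10766, 6542, 10129 and 7437 CPM on normal chow and 5395, 6745, 7567 and 10990.5 CPM on high salt, between 41.4% and 54.9% of the summed CPM of all 35 genes in each library. High salt 1 was lowest and high salt 4 highest, and 3 of the 4 high-salt libraries lay within the range of normal chow or below it. The log2 fold change of Scd1 was -0.18 ± 0.25 (adjusted p = 0.853, interval -0.75 to 0.38). Scd2, a close relative beside it on the chromosome (chromosome 19, 44293676 to 44306864, plus strand) that is typical of brain and of developing skin, was at 57.4, 9.20, 6.07 and 6.19 CPM on normal chow and 4.98, 7.99, 7.62 and 9.98 CPM on high salt. All libraries but normal chow 1 were at 4.98 to 9.98 CPM. Its log2 fold change of -1.36 ± 0.88 (adjusted p = 0.661) had the smallest p of the step and became 0.098 without normal chow 1. As a share of Scd1, Scd2 was at 0.533% in normal chow 1 and at 0.0599% to 0.141% in the other 7 libraries. Adipocytes also express Scd2. In normal chow 1 the fat cell markers Adipoq, Lep, Plin1, Cfd and Retn had 0 reads, and Fabp4 was at 7.65 CPM, against 6.86 to 7.47 CPM in normal chow 2 to 4. The part of fat cells in the Scd2 value was not tested.

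The front-end desaturases make polyunsaturated fatty acids. Fads1, the delta-5 desaturase, was at 704 ± 99.2 CPM on normal chow and 670.1 ± 18.9 CPM on high salt, and Fads2, the delta-6 desaturase, at 514 ± 91.0 and 557 ± 44.7 CPM. Their log2 fold changes were -0.071 ± 0.10 and 0.12 ± 0.12 (adjusted p = 0.858 and 0.792), with intervals of -0.29 to 0.14 and -0.14 to 0.37.

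Glycerolipid assembly held the member nearest to a call. Gpat4, an acyltransferase of the endoplasmic reticulum that adds the first acyl chain to glycerol-3-phosphate, lies on chromosome 8, 23171265 to 23208346, minus strand. It was at 149, 165, 133 and 132 CPM on normal chow and 112, 113, 103 and 98.6 CPM on high salt. Every high-salt library lay below every normal-chow library, and Gpat4 was the 1 tested member whose groups did not overlap, as in 6.36% of all tested genes, 3.37% with high salt lower and 2.98% with it higher. The means were 145 ± 15.6 and 107 ± 6.74 CPM, a fold of 0.737, and the log2 fold change was -0.44 ± 0.090 (adjusted p = 0.0763 by edgeR, 0.0980 by limma-voom). High salt 2, low in the genes of synthesis, was not lower in Gpat4 than high salt 3 or 4. With total-count scaling, under which the median of all tested genes was 0.066, the value was -0.38 (adjusted p = 0.138). The other enzymes of this reaction had no such separation. Gpam, the mitochondrial form, was at 179 ± 30.5 and 183 ± 26.6 CPM (log2 fold change 0.035 ± 0.13, adjusted p = 0.959). Gpat3, the relative of Gpat4, was at 3.35 ± 1.41 and 4.43 ± 1.44 CPM (0.39 ± 0.31, adjusted p = 0.716), and 30.0% of its exon length is shared with a gene on the opposite strand.

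The second acyl chain is added by the AGPAT enzymes. Agpat3 (chromosome 10, 78269178 to 78352489, minus strand) was at 143, 166, 155 and 189.8 CPM on normal chow and 216, 196, 185 and 178 CPM on high salt. Normal chow 4 lay among the high-salt values, above high salt 3 and 4, and the other 3 normal-chow libraries lay below all of them. Its log2 fold change was 0.24 ± 0.099 (unadjusted p = 0.0277, adjusted p = 0.387 by edgeR). Agpat2, whose loss causes lipodystrophy, was at 72.9, 103, 85.8 and 67.7 CPM on normal chow and 102, 66.2, 85.4 and 79.8 CPM on high salt (0.020 ± 0.15, adjusted p = 0.977).

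The lipins remove phosphate from phosphatidate to give diacylglycerol, and Lpin1 also acts as a transcriptional coactivator in liver. Lpin1 (chromosome 12, 16535669 to 16610966, minus strand) was at 491, 599.7, 588 and 572 CPM on normal chow and 322, 328, 351 and 568 CPM on high salt. High salt 1, 2 and 3 lay close together below all normal-chow libraries, and high salt 4 lay within the normal-chow range. The log2 fold change was -0.52 ± 0.17 (unadjusted p = 0.0128, adjusted p = 0.304 by edgeR). Without high salt 4 it was -0.76 (adjusted p = 0.00716), the 1 member called in that fit, where 0.333% of genes were called. High salt 4 was itself the library apart from the others in Lpin1, so that call is no separate support. Over the edgeR fits leaving out 1 library, the adjusted p of Lpin1 ran from 0.00716 to 0.524. In the fit without high salt 4, 9 members were lower at an unadjusted p below 0.05 (Acaca, Acacb, Elovl6, Gpat4, Lpin1, Lpin2, Mlxipl, Pnpla3 and Pnpla5), against 5.98% of all genes in it. Lpin2, another lipin of liver, was at 419, 534, 529.7 and 469.5 CPM and 411, 416, 409 and 469 CPM, and again high salt 4 was the high-salt library that stood above the other 3. For Lpin2 the log2 fold change was -0.20 ± 0.095 (adjusted p = 0.484). Lpin3 was low, at 4.94 ± 0.435 and 4.91 ± 0.836 CPM (-0.0097 ± 0.16, adjusted p = 0.988).

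The acyltransferases Dgat1 and Dgat2 complete triglyceride synthesis. Dgat2, the form tied to newly made fatty acids, was at 535, 607, 615 and 757 CPM on normal chow and 567, 584, 592 and 664 CPM on high salt, with all high-salt values inside the normal-chow range. The log2 interval was -0.29 to 0.16 around -0.063 (adjusted p = 0.883). Dgat1 ranged from 13.5 CPM in normal chow 1 to 19.5 CPM in high salt 2, with an interval of -0.16 to 0.34.

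Pnpla3, a lipid droplet protein with lipase and acyl-transfer activity whose gene follows SREBP-1, was at 8.58, 7.06, 14.1 and 6.46 CPM on normal chow and 5.57, 4.71, 7.10 and 7.28 CPM on high salt (chromosome 15, 84167816 to 84189512, plus strand). Normal chow 3 was highest and high salt 1 and 2 were lowest, and high salt 3 and 4 lay above normal chow 2 and 4. Its log2 fold change was -0.55 ± 0.25 (unadjusted p = 0.0474, adjusted p = 0.450 by edgeR). Pnpla5, the neighbouring relative (chromosome 15, 84112621 to 84123175, minus strand), had 26, 8, 20 and 20 reads in normal chow and 0, 3, 3 and 9 reads in high salt. Normal chow 2 and high salt 4 held nearly equal counts, and the other normal-chow libraries were above all of high salt. With no filter on low counts Pnpla5 was called by edgeR (log2 fold change -2.31 ± 0.51, adjusted p = 0.00674), in a fit that called 0.905% of 24317 genes. The authors' deposited table gives Pnpla5 a log2 fold change of -2.35 with an adjusted p of 0.0295 (marked significant there). It gives Gpat4 one of -0.45 with an adjusted p of 0.00119 (not marked significant there). In the authors' deposited table these 2 were the members with an adjusted p below 0.05, of 34 given one, against 1.41% of all genes given one.

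**Figure D3:**
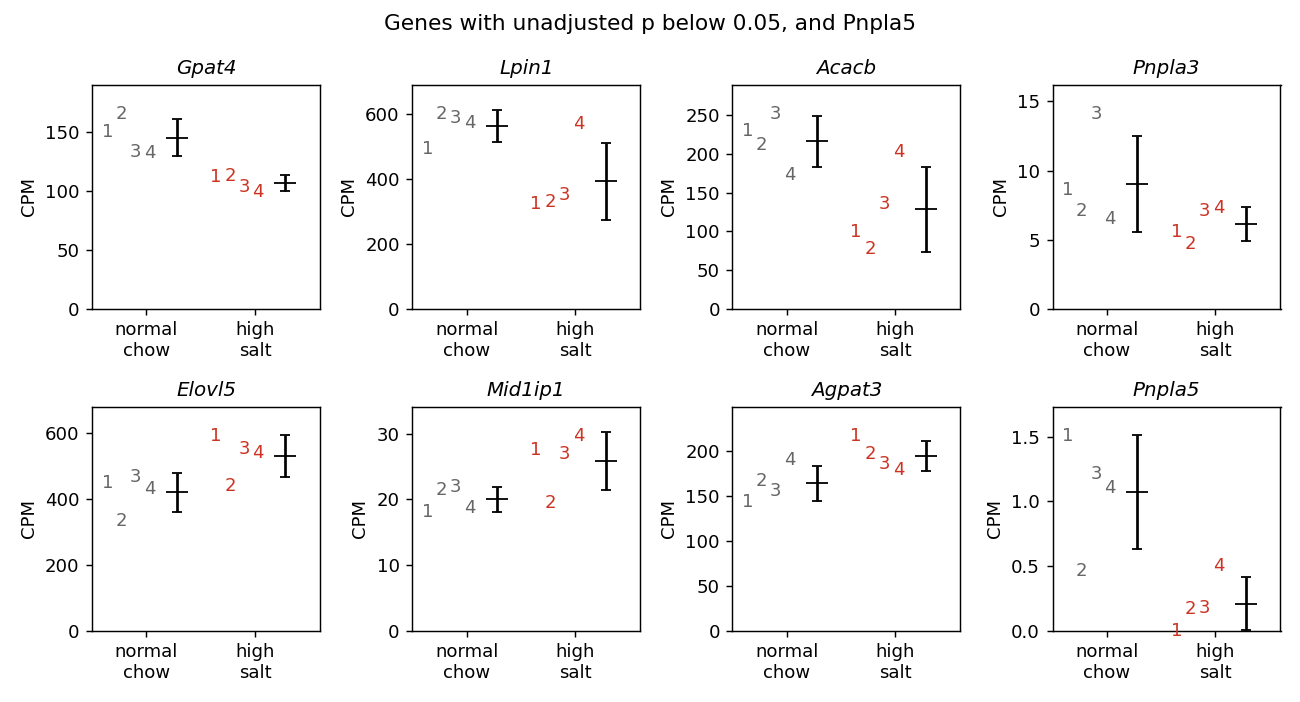
CPM (vertical axes, from 0) of the 7 genes with an unadjusted p below 0.05 and of Pnpla5, with each library drawn as its number and the mean with its SD beside it. Gpat4 is the panel without overlap, at 98.6 to 113 CPM in high salt and 132 to 165 CPM in normal chow, and high salt 4 stands above the other 3 in Lpin1.

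How far the data bound a change differed by step. The 95% interval lay within 1.5-fold in either direction for 15 of the 34 tested members, of which 7 belonged to glycerolipid assembly and 1, Slc25a1, to supply and synthesis. For 11 members it reached beyond 2-fold in at least one direction, and 5 of these (Acly, Acss2, Aacs, Acacb and Fasn) were of supply and synthesis. The data bound the genes of supply and synthesis least.

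**Figure D4:**
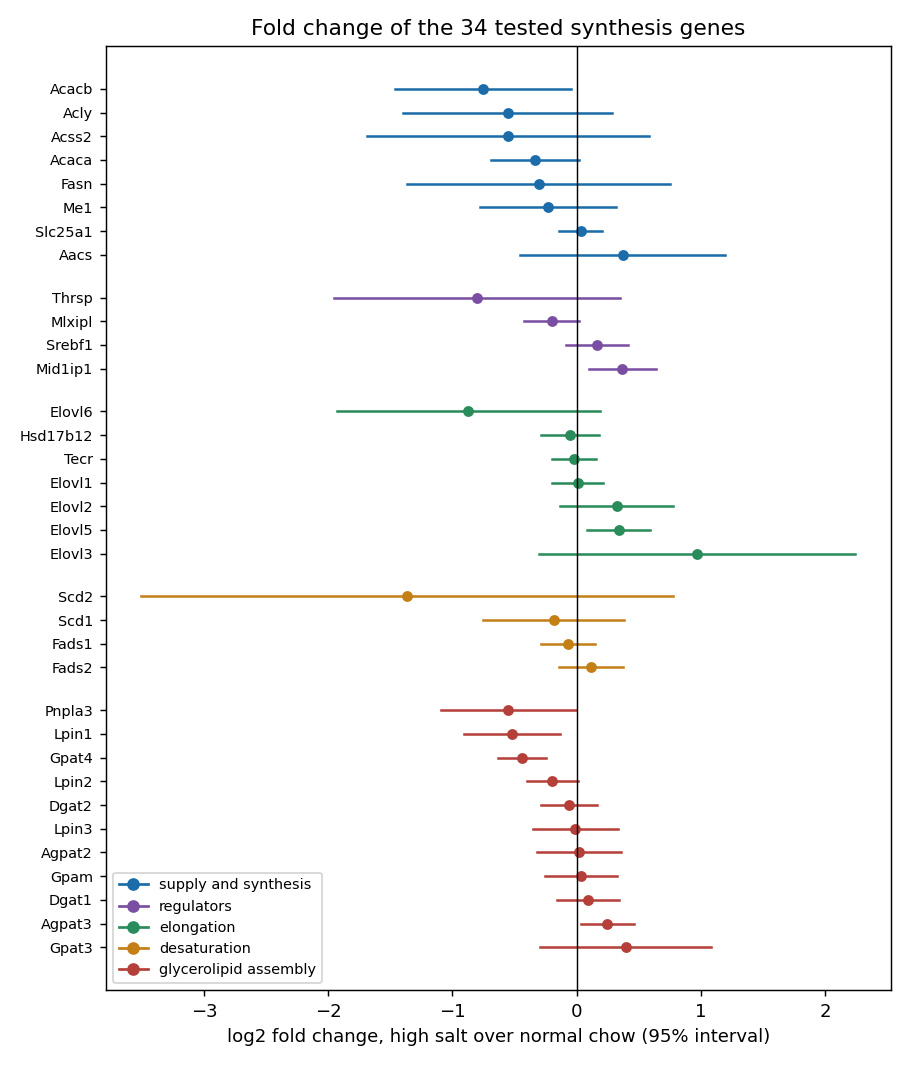
Points give the log2 fold change of high salt over normal chow and bars its 95% interval for the 34 tested genes, grouped by step. Gpat4 is at -0.44 with a narrow interval of -0.64 to -0.25, while that of Fasn runs from -1.36 to 0.75.

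Added up per library, members of supply and synthesis came to 2702, 2721, 3749 and 1994 CPM on normal chow and 1787, 1310.2, 2517 and 3132 CPM on high salt. Normal chow 3 was highest, high salt 2 lowest, and high salt 4 was above 3 normal-chow libraries. The means were 2791 ± 722 and 2187 ± 802 CPM, a ratio of 0.783. Regulators summed to 1142 ± 314 and 892 ± 186 CPM (ratio 0.781), most of it Thrsp and Srebf1. Elongation was the step with a ratio above 1, at 1686 ± 217 and 1834 ± 89.0 CPM (1.09). Desaturation, mostly Scd1, gave 9956 ± 2118 and 8909 ± 2357 CPM (0.895), and glycerolipid assembly 2284 ± 179 and 2021 ± 184 CPM (0.885). In each step the groups overlapped, and the sums were not tested.

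Compared per kb of exon over all 8 libraries, Scd1 led at 1675 ± 436 CPM per kb (mean ± SD). Thrsp at 224 ± 113, Dgat2 at 199.5 ± 22.2, Elovl2 at 185 ± 46.1 and Fads2 at 162 ± 21.3 CPM per kb followed, each differing from the next by less than the larger of their SDs. Fads1 (143), Elovl5 (135), Acly (93.9), Slc25a1 (88.4) and Fasn (84.7 CPM per kb) completed the first 10. By CPM alone Fasn ranked second. Among the acetyl-CoA carboxylases, Acacb stood at 17.9 CPM per kb and Acaca at 7.95. Of the first acyltransferases, Gpam was at 27.1, Gpat4 at 18.8 and Gpat3 at 1.11 CPM per kb. Dgat2 exceeded Dgat1 (5.78), and Lpin1 (49.4) and Lpin2 (37.4) exceeded Lpin3 (1.33 CPM per kb). Exon length was the union of all annotated exons, which understates the level of genes with long alternative exons.

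**Figure D5:**
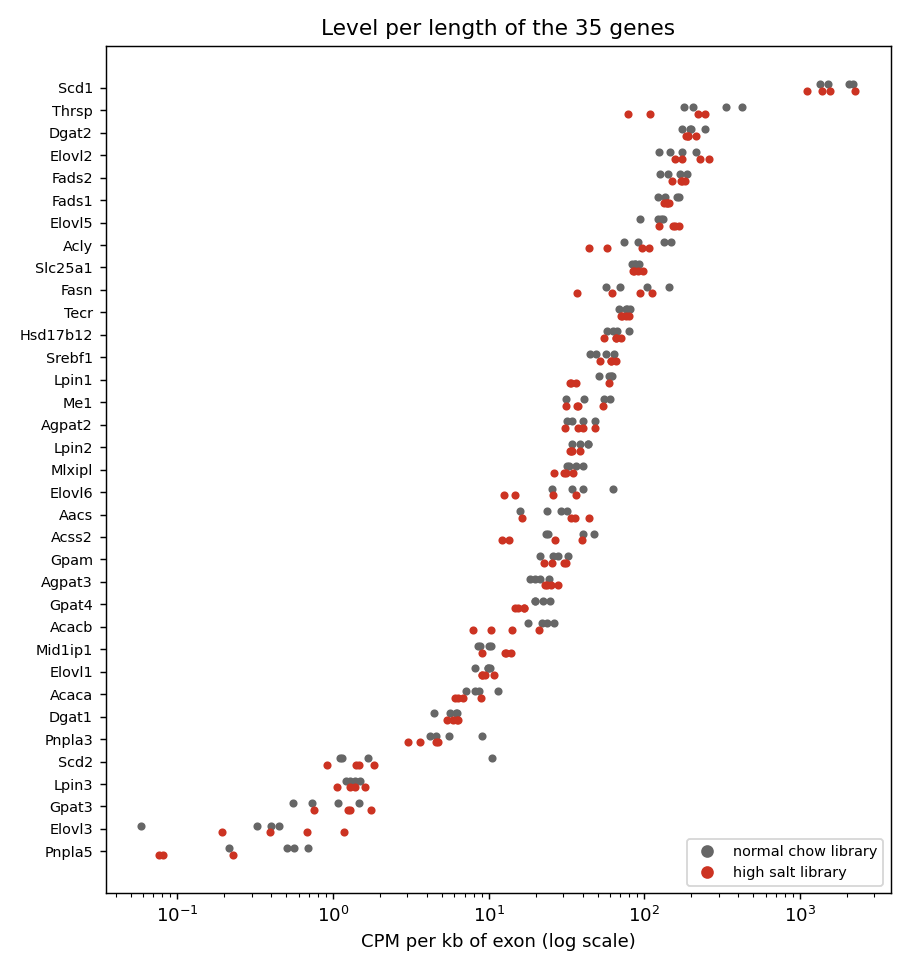
CPM per kb of exon (log axis) of the 35 genes in each library, ordered by mean, with normal chow and high salt in separate colours. Scd1 stands at 1103 to 2247 CPM per kb, above every other gene, and the Pnpla5 value of high salt 1, at 0, is not drawn.

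Other genes of the pathway, from a list of 60, gave 0 called of 53 tested and a median log2 fold change of 0.020. Before adjustment 3 were higher and 2 lower (p below 0.05 by edgeR), against 5.33% and 5.60% of all tested genes. Of 20 genes of upstream control (SREBP processing, LXR, AMPK, insulin signalling and other factors), 0 had an unadjusted p below 0.05. The smallest p values were those of Usf2 (0.21 ± 0.098, adjusted p = 0.463) and Ppargc1b (-0.32 ± 0.16, adjusted p = 0.489), both among the other factors. Insig1, which holds SREBP in the endoplasmic reticulum and is itself an SREBP target, was at 354, 438, 604 and 302 CPM on normal chow and 458, 361, 521 and 511 CPM on high salt. Among suppliers of carbon and NADPH, Gpd1, which makes glycerol-3-phosphate, had 0.26 ± 0.13, adjusted p = 0.503. Acsl1, which activates fatty acids for oxidation and esterification, had 0.45 ± 0.11, adjusted p = 0.129, and Acsl3 had 0.39 ± 0.18, adjusted p = 0.459. Among the genes named here, Acsl1 and Lpcat3 (given next) had groups that did not overlap, both with high salt higher. Such groups also occurred in 6.36% of the 13341 genes, and in 2.98% high salt was the higher group. Of the glycerolipid genes, Lpcat3, which places polyunsaturated chains in phospholipids, had 0.32 ± 0.088, adjusted p = 0.176, and Cds2, which diverts phosphatidate to phospholipid synthesis, had -0.26 ± 0.093, adjusted p = 0.325.

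The tissue label held in all libraries, where 7 hepatocyte markers found in the table summed to 133108 to 150586 CPM in normal chow and 135590.0 to 143693 CPM on high salt. Of the 7, Cps1 was lower in high salt and Apoa1 higher at an unadjusted p below 0.05 (-0.58 ± 0.13, adjusted p = 0.0945 and 0.38 ± 0.15, adjusted p = 0.401), and 0 were called. Of all tested genes, 10.9% had such an unadjusted p. The groups of Cps1 did not overlap, as in 3.37% of all tested genes with high salt lower. Among 5 sinusoidal endothelial markers 1 was called, Ehd3 (-0.48 ± 0.090, adjusted p = 0.0438), at 99.8 CPM on average in normal chow and 71.7 in high salt. Stab2 (-0.058), Clec4g (-0.13), Pecam1 (-0.069) and Lyve1 (0.090) had overlapping groups. With Ehd3 included, the 5 summed to 244 to 274 CPM in normal chow and 199.8 to 237 in high salt. Their part in the members' values was not tested. Of the adipocyte markers, whose cells express many of the same synthesis enzymes, 6 of 7 were in the table and summed to 6.86 to 12.9 and 4.21 to 15.01 CPM, mostly Fabp4. Cfd reached 3.52 CPM in high salt 3, 3.30 in normal chow 2 and 1.59 in high salt 2 and was at 0 in the other 5 libraries. High salt 2, lowest in 11 members, also had the highest sum of 5 B and plasma cell markers. That sum was 26.1 to 288 CPM in high salt and 19.8 to 58.2 CPM in normal chow. Ighm, 1 of the 5, was at 9.36, 129, 38.8 and 52.8 CPM in high salt 1 to 4 and 8.34 to 27.0 CPM in normal chow. In the other marker lists 0 genes were called. At an unadjusted p below 0.05 by edgeR, 1 of 6 Kupffer cell markers was higher and 1 lower. Lower at that cut-off were also 1 of 5 stellate cell and 1 of 4 red cell markers. Bile duct (5 tested) and pancreas (1 tested) markers had 0. Of all tested genes 5.33% were higher and 5.60% lower. The part of all these markers in the members' values was not tested. Several members follow the time of day, and the labels give no hour of collection. Of 11 tested clock genes 0 had an unadjusted p below 0.05, against 10.9% of all tested genes, and so small a list can show little. Dbp was at 89.2, 79.2, 106 and 146 CPM on normal chow and 113, 128, 114 and 133 CPM on high salt. The part of collection time in the members' values was not tested.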

How the data were processed

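RNA-seq of mouse liver came as 1 table of raw, whole-number counts for every gene in 8 libraries, as deposited by the authors per the file headers. The build GRCm38 and the tools HTSeq 0.6.0, HISAT2 2.1.0 and StringTie 1.3.2d are listed, without roles, in the submitters' processing notes; the strand setting and the handling of multiply matching reads are not. The authors' deposited table also gives each gene a linear ratio (fold), log2 fold change, p-value and adjusted p, from a tool not named; values from it are marked as such. A line emptied in the copy used was not analysed here.

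Groups came from the diet labels. edgeR 4.0.16 (R 4.3.3) was run on all 8 libraries with filterByExpr, TMM and a robust quasi-likelihood fit, with two-sided p-values, Benjamini-Hochberg adjustment across 13341 genes and calls below 0.05. Standard errors came from the fold change and F statistic, and 95% intervals from the t distribution with the fit's degrees of freedom. CPM divides deposited counts by the TMM-scaled library size. Members and lists were chosen with earlier results of these data known. Per-library values were set out for members with an unadjusted p below 0.05, the most abundant and the smallest-p member of each step, members with a library standing apart, and 6 central genes; Acss2, Elovl6 and Agpat2 were added after their values were seen. From each role of the other pathway genes the 2 of smallest p were named, except 1 gene that is not reported here; Insig1 and Dbp were added. Library totals did not pass a test between diets (exact permutation p = 0.400 over 70 assignments, smallest possible 0.0286). Exon lengths and overlaps came from GENCODE M21, whose coordinates matched the table's for 25 of 35 members. DESeq2 1.42.0, limma-voom (limma 3.58.1), other scalings and filters, a block by title number and fits leaving out libraries were alternatives.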

Additional observations from a re-analysis of the deposited data

Results flagged for a closer look

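In 4 of 70 groups of 4 libraries tested over the 35 genes, 1 library lay further from the others than Dixon's critical value allows, where chance gives about 1 in 20. Scd2 in normal chow 1 was at 57.4 CPM, against 6.07 to 9.20 in normal chow 2 to 4. Elovl1 in normal chow 4 was at 22.3 CPM, against 26.8 to 27.7. Lpin1 in high salt 4 was at 568 CPM, against 322 to 351, and Lpin2 in the same library at 469 CPM, against 409 to 416.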

How the results depend on the processing

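Over all genes the count of 40 called (20 higher, 20 lower) was 238 (97 and 141) with DESeq2, 15 (7 and 8) with limma-voom, 220 (89 and 131) with no filter, 19 (11 and 8) without the robust option and 32 (21 and 11) with total counts. Leaving out 1 library gave 4 to 57 (higher 2 to 25, lower 1 to 32), with 4 without normal chow 2, 5 without high salt 1, 11 without normal chow 3 and 18 without high salt 2; leaving out normal chow 1 and high salt 2 together, chosen after seeing the data, gave 69 (26 and 43). Deviations from the diet means gave r = -0.195 to 0.0865 for libraries of the same title number, within the -0.221 to 0.343 of the other pairs. These values do not settle whether the numbers pair the libraries, and the labels do not say. With the replicate block 11 genes were called (8 and 3) and 0 members. The count of members called, 0, was 1 with DESeq2 (Gpat4), 2 with no filter (Gpat4 and Pnpla5) and 0 to 1 with 1 library left out (Lpin1 without high salt 4). Members lower at an unadjusted p below 0.05, 4 in all, were 2 without normal chow 3 and 9 without high salt 4, the lowest and highest of these fits, and members higher ran from 2 to 4. Their median log2 fold change stayed between -0.11 and -0.015 in the same fits and was 0.0024 with total counts, where the median of all genes was 0.066. With 1 library left out, the step medians ran from -0.084 to 0.035 for regulators (-0.020 with all libraries), -0.24 to 0.038 for desaturation (-0.13) and -0.12 to 0.040 for glycerolipid assembly (-0.0097), so these signs turned, as did that of elongation.

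Signs turned in 10 members when 1 library was left out; their log2 fold changes ran from -0.017 to 0.060 (Slc25a1), -0.056 to 0.039 (Elovl1), -0.12 to 0.041 (Hsd17b12), -0.072 to 0.010 (Tecr), -1.66 to 0.098 (Scd2), -0.063 to 0.13 (Gpam), -0.099 to 0.14 (Agpat2), -0.11 to 0.082 (Lpin3), -0.0060 to 0.15 (Dgat1) and -0.13 to 0.039 (Dgat2). With total counts Hsd17b12 was at 0.0069, Tecr at 0.040 and Lpin3 at 0.050. Without normal chow 1 and high salt 2, Hsd17b12 was at 0.014, Tecr 0.032, Scd2 0.071, Lpin3 0.098 and Dgat1 -0.045, while Slc25a1, at 0.083, kept its sign. Gpat4 kept its sign throughout, with adjusted p of 0.0629 to 0.180 when 1 library was left out. Where settings differ the cause was not tested. Of the 10 members highest per kb, 9 were also among the 10 highest by CPM. Elovl3, Pnpla5, Gpat3 and Lpin3 had few reads, which limits what these libraries can show for them.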
